A study of Mus musculus with 9 samples.

Results

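Lung of challenged mice given an agonist of EP3 was compared with lung of challenged mice that did not receive it, across the genes of an Affymetrix mouse array. The comparison was chosen by the sample titles alone: 3 arrays of agonist-treated challenged lung against 3 arrays of challenged lung, 6 of the 9 arrays of the study. The mice were C57BL6, and total RNA of the lung was hybridised. Mice of both groups belonged to a model in which ovalbumin (OVA), a protein of egg white, induces asthma. Both were challenged with OVA, and the titles of both carry 24 h. They differ by the agonist of the prostaglandin E2 receptor subtype EP3. The remaining 3 arrays came from mice of the same model challenged with saline, and their values are given beside the others as a reference. No source used here gives the name, dose, route or timing of the agonist, or the age and sex of the mice. Whether a group's 3 arrays are 3 mice is not stated, so p-values measure only the spread between these samples, which may be technical. Arrays are named by group and number, as OVA 1 or agonist 3, and values in threes follow the order of replicates 1, 2 and 3.

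Prostaglandin E2 is a lipid made from arachidonic acid that acts through a family of G protein-coupled receptors, EP1 to EP4, encoded by Ptger1 to Ptger4. EP3 couples mainly to inhibitory G proteins and lowers cyclic AMP, whereas EP2 and EP4 raise it, and in the airway EP3 is known for restraining allergic inflammation. In the allergic lung, interleukins 4 and 13 signal through the transcription factor STAT6 in epithelium and macrophages, which then make eosinophil and T cell attracting chemokines, chitinases and mucus.

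The deposited values are probe set intensities with some signal already subtracted, since values below 0 occur on every array. Scale factors of 0.741 to 1.29 brought the arrays to a common 2% trimmed mean, and 59.6% to 60.6% of the probe sets of an array then lay above the detection limit of 44.9 intensity units, the 40th percentile of all values. The lung markers Sftpc, surfactant protein C, and Scgb1a1, the club cell secretory protein, were bright on all 9 arrays (10138 to 14985 and 8739 to 13253). Agonist 3 stood apart from its group. Its correlation across probe sets, which are no independent replicates, was 0.881 and 0.88 with agonist 1 and 2, and 0.87, 0.882 and 0.905 with OVA 1, 2 and 3. On the first principal component, which held 36.2% of the variance, OVA 1, 2 and 3 scored 44.3, 39.8 and 29.5, and saline 1, 2 and 3 scored −21.0, −26.3 and −30.8. Agonist 1, 2 and 3 scored −23.9, −22.6 and 10.9. On this component agonist 1 and 2 thus lay among the saline arrays and agonist 3 between them and the OVA arrays. On the second component, which held 13.4%, saline 1, 2 and 3 scored 9.7, 11.1 and 22.1. OVA 1, 2 and 3 scored 15.8, 10.5 and −8.3, and agonist 1, 2 and 3 scored −24.9, −3.0 and −33.0. There every agonist array lay below every saline array, and agonist 1 was nearer to agonist 3 than to agonist 2. Where leaving out agonist 3 changed the call of a gene named below, that is stated beside it.

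The genes that fell with the agonist included chemokines and enzymes of the allergic response and genes of macrophages, antigen presentation and cell division. Those that rose included genes of airway epithelial metabolism, blood vessels and adipose tissue. Of 7916 probe sets tested, 225 passed limma's test at an adjusted p of 0.05 (2.84%), 102 of them higher (1.29%) and 123 lower (1.55%) with the agonist. The calls with a single gene symbol covered 86 genes higher and 105 lower. Falls were deeper than rises: 54 of the lower calls and 9 of the higher calls changed at least 2-fold, with values below the detection limit held at it. In each of the 225 calls the groups did not overlap. Among all probe sets tested, 2364 did not overlap (29.9%), 1411 of them higher (17.8%) and 953 lower (12%) with the agonist. The median log2 change of all probe sets tested was 0.06. The comparison of OVA with saline would share the OVA arrays with this one, so values of saline arrays are given as levels and no relation between the comparisons was computed.

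The number of calls depended on the arrays in the fit. Without agonist 3 it was 512 (6.47% of those tested), 214 higher (2.7%) and 298 lower (3.76%), and 194 of the 225 were among them. Without OVA 3 it was 212, and 137 of the 225 were among them. With any other array left out it was between 13 and 33, saline arrays included, and with only the 6 arrays compared it was 18. Whichever of the 9 arrays was left out, 11 of the 225 passed, among them Ccl17, Fbp1, Alox15 and Pax4. None of the 225 changed direction in any alternative tried.

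**Figure D1:**
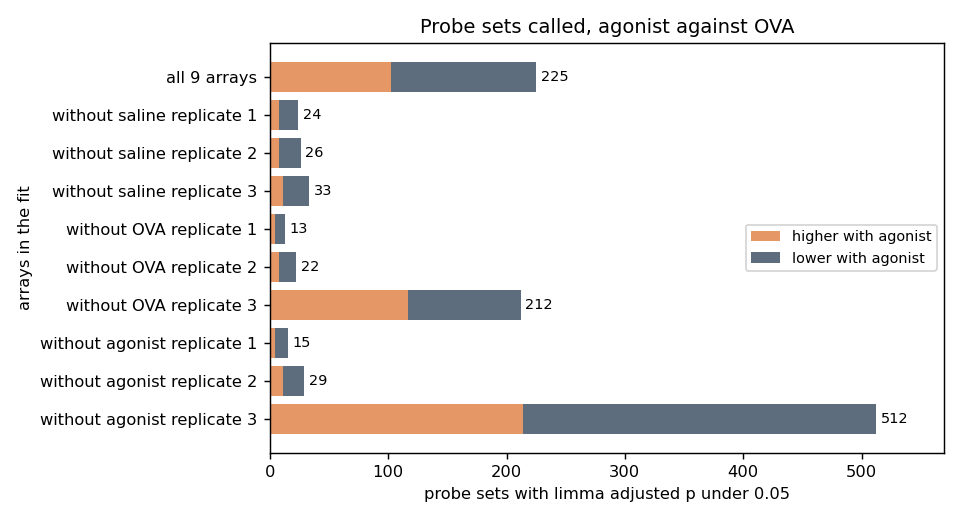
Number of probe sets with a limma adjusted p under 0.05 (horizontal axis) in the fit of all 9 arrays and with each array left out in turn (vertical axis). Each bar is split into probe sets higher and lower with the agonist. The count is 225 with all arrays, 512 without agonist 3 and 212 without OVA 3, and between 13 and 33 with any other array left out.

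Among the named genes, the falls that held whichever array was left out were in 3: Ccl17, the chemokine that attracts T helper 2 cells through CCR4, Fbp1, fructose-1,6-bisphosphatase of gluconeogenesis, and Alox15, the lipoxygenase of eosinophils and macrophages that interleukins 4 and 13 induce. Ccl17 read 656, 657 and 427 with OVA alone and −49, −31.8 and −90.2 with the agonist, and −115 to −103 with saline. Fbp1 read 441, 399 and 304 with OVA alone and −6.1, −7.3 and −31.7 with the agonist, and −27 to −15.3 with saline. Alox15 read 213, 273 and 106 with OVA alone and 2.9, −24.9 and −26.3 with the agonist, and −35.6 to −28.3 with saline. In all 3 genes every OVA array was above the detection limit, every agonist array was below the floor of 3.19 to which low values were raised, and agonist 3 was as low as agonist 1 and 2. Only lower bounds of the fold can be given: at least 12.7-fold for Ccl17, 8.39-fold for Fbp1 and 4.09-fold for Alox15, the geometric mean of the OVA arrays over the detection limit. The limma adjusted p was 4.59e-07, 3.70e-07 and 8.34e-05, and at most 1.66e-05, 1.49e-05 and 0.00129 with any array left out. All agonist and all saline values of these genes lay below the floor, so neither group adds spread to the fit. Only the OVA arrays do, also with any array left out, and the p-values are low in part because of the floor. In bulk lung, fewer cells of a type and less RNA per cell cannot be told apart, for these or any other calls. A compared group lay wholly at the floor in 13 of the 225 calls, the agonist group in 9 and the OVA group in 4. That group adds no spread there. Alox15 is also an eosinophil marker, but the genes that define eosinophils, Prg2, Prg3, Epx, Il5ra and Ccr3, were below the detection limit on all 9 arrays, the highest value being 44.8 for Ccr3.

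The promoters of Ccl17 and Fbp1, the genes of lowest adjusted p, are shown because one holds the site that STAT6 binds and the other does not. Each window runs from 250 bases before to 50 after the transcription start, from RefSeq on GRCm38.p6 (Ccl17 chr8:94810203-94810502, plus strand, and Fbp1 chr13:62888233-62888532, minus strand), written 5′ to 3′. Capitals mark the STAT6 site, searched as TTC, any 4 bases, then GAA, which reads the same on both strands.
Ccl17: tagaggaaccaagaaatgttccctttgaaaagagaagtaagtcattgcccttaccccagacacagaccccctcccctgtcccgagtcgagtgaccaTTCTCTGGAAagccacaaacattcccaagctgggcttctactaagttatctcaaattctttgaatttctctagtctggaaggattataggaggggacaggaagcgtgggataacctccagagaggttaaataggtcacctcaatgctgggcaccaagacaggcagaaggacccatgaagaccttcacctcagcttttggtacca
Fbp1: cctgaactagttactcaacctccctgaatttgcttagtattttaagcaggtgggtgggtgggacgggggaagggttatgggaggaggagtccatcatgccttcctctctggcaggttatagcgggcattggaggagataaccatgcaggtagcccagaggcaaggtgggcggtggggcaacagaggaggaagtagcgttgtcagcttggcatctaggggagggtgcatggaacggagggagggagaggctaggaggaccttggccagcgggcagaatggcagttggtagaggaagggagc
Among tested genes with such a window, 299 of 4761 held the STAT6 site (6.28%), against 5 of 76 genes called lower (6.58%) and 8 of 69 called higher (11.6%). The cAMP response element TGACGTCA, which also reads the same on both strands, was in 163 of 4761 (3.42%), in 5 of 76 called lower (6.58%) and in 2 of 69 called higher (2.9%). These shares describe letters in a window and say nothing of binding.

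A list median is a median log2 change, followed in square brackets by its lowest and highest value with 1 of the 6 arrays left out. Lists count each gene by its brightest probe set, and 7 list genes were called on a dimmer one only (Acvrl1, Aldh2, Cyba, Flt4, Il4ra, Mki67 and Vcam1). Counts called in a list stand against the shares over all probe sets tested, 1.29% higher and 1.55% lower. Without agonist 3 these shares were 2.7% and 3.76%. A single call in a list describes that gene and not the list. Of 23 tested genes of the type 2 response, 5 fell with the agonist (Ccl17, Ccl11, Chia1, Mmp12 and Alox15) and 0 rose, with a list median of −0.44 [−0.72 to −0.37] against 0.06 for all probe sets. Of 17 chemokines, 3 fell (Ccl17, Ccl11 and Ccl2) and 0 rose, with a median of −0.76 [−1.11 to −0.58]. Without agonist 3, 8 genes of each list fell. The list medians for agonist 1, 2 and 3 against the OVA mean were −0.74, −0.83 and −0.20 for the type 2 genes and −0.91, −1.0 and −0.20 for the chemokines, so agonist 3 was closest to OVA in both. Il4ra, the receptor chain shared by interleukins 4 and 13, was called higher on a dim probe set (34.8, 28.2 and 31.7 with OVA alone, 48.4, 51.4 and 63 with the agonist, adjusted p = 0.0447), while its brightest one had a log2 change of −0.24 (adjusted p = 0.632). The call of the dim one did not hold with any 1 of the 9 arrays left out (adjusted p of 0.0503 to 0.125).

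Ccl11, eotaxin, which draws eosinophils through CCR3, read 598, 619.8 and 261 with OVA alone and 9.7, 2.4 and 66.5 with the agonist, and 7.1 to 8.3 with saline. It fell 8.97-fold with values below the limit held at it (adjusted p = 0.0444, limma). Ccl2, which recruits monocytes, read 126, 166 and 58.4 with OVA alone and −7.8, 11.9 and 15.7 with the agonist. It fell at least 2.38-fold (adjusted p = 0.0378). In both chemokines agonist 3 was the highest agonist array and OVA 3 the lowest OVA array, without overlap. Chia1, the acidic chitinase of airway epithelium and macrophages, read 3272, 3781 and 2252 with OVA alone and 335, 297 and 986 with the agonist, and 272 to 370.4 with saline. It fell 6.57-fold, a log2 change of −2.72 ± 0.44 (± SE, as for all log2 changes, n = 3 arrays a group, adjusted p = 0.0366), with agonist 1 and 2 at the saline level and agonist 3 above it.

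Chil1, a chitinase-like protein that is also listed as a neutrophil and an alveolar type 2 marker here, read 2696, 2977 and 2314 with OVA alone and 929, 924 and 1442 with the agonist and fell 2.47-fold (log2 −1.30 ± 0.19, adjusted p = 0.0355). Mmp12, the elastase of macrophages, read 2119, 2333 and 1685 with OVA alone and 266, 207 and 460.4 with the agonist, and 74.9 to 155 with saline. It fell 6.91-fold (log2 −2.79 ± 0.35, adjusted p = 0.0224), and its other probe set had a log2 change of −3.77 with an adjusted p of 0.0555. Gatm, which makes the creatine precursor guanidinoacetate, read 388, 409.8 and 244 with OVA alone and 19.1, 43.6 and 99.1 with the agonist and fell 5.79-fold with values held at that limit (adjusted p = 0.042). The agonist arrays of these genes lay below every OVA array, agonist 3 being the highest of them in each. Of these 6 calls none passed without saline 1, OVA 1 or 2 or agonist 1 or 2 (a highest adjusted p of 0.0962 to 0.148). Mmp12 alone passed without saline 2 or 3, Ccl11 and Gatm did not pass without OVA 3, and all 6 passed without agonist 3 (adjusted p 0.00176 to 0.0172).

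**Figure D2:**
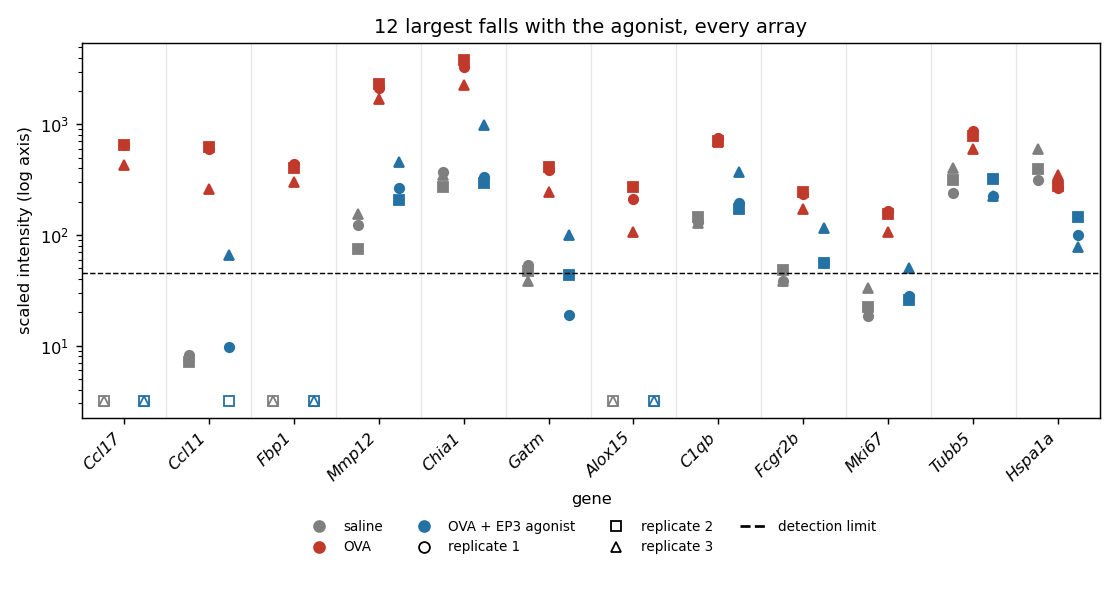
Scaled intensity (vertical, log axis) of the 12 genes with the largest falls among calls, 1 point per array for saline, OVA and OVA with the EP3 agonist, with the replicate number as the symbol. Open symbols at the bottom are values raised to the floor of 3.19, and the dashed line is the detection limit of 44.9. In every gene the 3 agonist points lie below the 3 OVA points, and agonist 3 is the highest agonist point in Ccl11, Mmp12, Chia1, Gatm, C1qb, Fcgr2b and Mki67.

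The type 2 cytokines Il4 and Il13 gave little signal. The 4 probe sets of Il4 other than the control were below the detection limit on every array, and Il13, below it on 5 of the 6 challenged arrays, was not tested. Il5 read 40, 71.6 and 66.1 with OVA alone and 61.7, 74 and 78.1 with the agonist (adjusted p = 0.496), above the limit on 5 of these 6. Il9 was above it on 3 of the 6 (adjusted p = 0.956). Of 32 tested cytokines and cytokine receptors 0 passed, with a median of −0.12 [−0.20 to −0.083], and 3 fell without agonist 3. Csf2rb2, a receptor chain of the interleukin 3 family and an eosinophil marker here, read 121, 166 and 128 with OVA alone and 68.9, 70.4 and 113 with the agonist (log2 −0.74 ± 0.21, adjusted p = 0.0928, and 0.0215 without agonist 3).

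Genes of mucus and goblet cells did not pass in the fit of all arrays: 0 of 19, with a median of −0.13 [−0.19 to −0.11], and 2 fell without agonist 3. Clca1, secreted by goblet cells and induced by interleukin 13, read 5529, 7001 and 5967 with OVA alone and 257, 645 and 5194 with the agonist, and 47.8 to 63.2 with saline. Its adjusted p was 0.137 with all arrays and 0.00324 without agonist 3. Tff2, a trefoil peptide of mucus, read 478, 406 and 459.7 with OVA alone and 70.3, 212 and 469.6 with the agonist (adjusted p = 0.265, and 0.0615 without agonist 3). Agr2, needed for mucin folding, read 301, 235 and 154 with OVA alone and 21.6, 39.8 and 91 with the agonist (adjusted p = 0.0928, and 0.0512 without agonist 3). Agonist 3 lay within the OVA range for Tff2 and just below it for Clca1, while agonist 1 and 2 lay below it in all 3 genes.

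Agonist 3 also differed from agonist 1 and 2 in genes of other groups. Saa3, an acute phase protein of macrophages and epithelium, read 2425, 3355 and 340.4 with OVA alone and 2.2, 13.4 and 363 with the agonist (adjusted p = 0.0892, and 0.0112 without agonist 3). Ccl8, a chemokine for monocytes and T cells, read 1266, 1071 and 701 with OVA alone and 139, 50.7 and 575 with the agonist (adjusted p = 0.0962, and 0.00945 without agonist 3). Reg3g, an antibacterial lectin of airway epithelium, read 965, 1058 and 744 with OVA alone and 255, 347 and 766 with the agonist (adjusted p = 0.111, and 0.0086 without agonist 3). In Saa3 and Reg3g agonist 3 overlapped the OVA arrays, and in Ccl8 it lay below them by less than the spread of the agonist group. Whether agonist 3 differs in treatment, challenge or handling was not tested.

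Of 38 tested macrophage and dendritic cell genes 5 fell, 2 rose and 31 did not pass, with a median of −0.47 [−0.61 to −0.33]. Without agonist 3, 17 fell. Of 21 complement and acute phase genes 3 fell, C1qa, C1qb and Cfp, all known from macrophages and other myeloid cells (median −0.38 [−0.54 to −0.24]), and 6 fell without agonist 3. The summed intensity of the 38 markers was 23056 to 24097 with saline, 30601 to 32384 on the OVA arrays and 25382 to 30214 on the agonist arrays.

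C1qb and C1qa encode chains of C1q, which starts the classical complement pathway. C1qb read 749, 702 and 691 with OVA alone and 193, 173 and 367 with the agonist, and 129 to 145 with saline, a fall of 3.1-fold (log2 −1.63 ± 0.26, adjusted p = 0.0363, limma). C1qa read 835, 844 and 762 with OVA alone and 293, 274 and 499 with the agonist, a fall of 2.38-fold (log2 −1.25 ± 0.22, adjusted p = 0.042). All agonist arrays lay below all OVA arrays in both genes, and agonist 3 was the highest of them. A second C1qb probe set had a log2 change of 0.04 (adjusted p = 0.933) and did not show the fall. Fcgr2b, the inhibitory receptor for immunoglobulin G, read 233, 247 and 172 with OVA alone and 55.3, 56.3 and 117 with the agonist and fell 3.01-fold (log2 −1.59 ± 0.30, adjusted p = 0.0444). Cfp, properdin of the alternative complement pathway, fell 2.29-fold (adjusted p = 0.0397), and Ctsz, the lysosomal protease cathepsin Z, fell 1.72-fold (adjusted p = 0.0398). The fifth macrophage marker that fell was Fabp5, a fatty acid binding protein listed also for alveolar type 2 cells (1.62-fold, adjusted p = 0.0446). The 2 that rose were Lyz2, lysozyme of macrophages and alveolar type 2 cells, and Lpl, lipoprotein lipase, which the adipose list also holds. Lyz2 read 3637, 4208 and 4645 with OVA alone and 6099, 6343 and 6062 with the agonist, a log2 change of 0.57 ± 0.11 (adjusted p = 0.0444). The calls of C1qa, C1qb, Cfp, Fcgr2b, Ctsz, Fabp5 and Lyz2 are counted next. Leaving out saline 1, 2 or 3, OVA 1 or 2 or agonist 1 or 2 ended all 7 calls (a highest adjusted p of 0.125 to 0.148). C1qa, Ctsz and Fabp5 did not pass without OVA 3, and Fabp5 did not pass without agonist 3.

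Antigen presentation by MHC class II had the lowest median of any pathway list, −0.83 [−1.04 to −0.67]: of 16 tested genes 5 fell and 0 rose, and 7 fell without agonist 3. H2-Aa and H2-Ab1 encode the alpha and beta chains of the class II molecule I-A. H2-Aa read 3207, 3353 and 3248 with OVA alone and 1505, 1733 and 2149 with the agonist, and 1374 to 1669 with saline, a fall of 1.84-fold (log2 −0.88 ± 0.14, adjusted p = 0.0366). H2-Ab1 read 1704, 1740.2 and 1727 with OVA alone and 604, 797 and 916 with the agonist, a fall of 2.27-fold (log2 −1.18 ± 0.21, adjusted p = 0.042). The OVA arrays were tight in both and the agonist arrays spread more widely below them. H2-Eb1, the beta chain of the class II molecule I-E, read 2168, 2295 and 2427 with OVA alone and 999, 1265 and 1618 with the agonist (log2 −0.85, adjusted p = 0.0488). H2-DMb1, a chain of the peptide loader DM, fell 2.22-fold (adjusted p = 0.0408), and Ifi30, the lysosomal thiol reductase that unfolds antigens, fell 2.01-fold (adjusted p = 0.0444). These calls were lost without saline 1, 2 or 3, OVA 1 or 2 or agonist 1 or 2 (a highest adjusted p of 0.125 to 0.148). H2-DMb1 and Ifi30 alone passed without OVA 3, and all 5 passed without agonist 3 (adjusted p 0.00773 to 0.0256). The per-array list medians were −1.13, −0.89 and −0.39 for agonist 1, 2 and 3.

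Lymphocyte and mast cell genes gave no call: 0 of 21 for B and plasma cells (median −0.44 [−0.54 to −0.014]), 0 of 19 for T and cytotoxic cells (median −0.12 [−0.21 to −0.011]) and 0 of 6 for mast cells and basophils (median 0.071 [−0.00046 to 0.16]). The medians for agonist 1, 2 and 3 were −0.96, −0.04 and −0.05 for B and plasma cells and −0.33, −0.05 and −0.08 for T and cytotoxic cells, so agonist 1 was the lowest in both. Without agonist 3, 4 B and plasma cell genes and 1 T cell gene fell. Jchain, which joins secreted immunoglobulin A and M, read 1833, 1342 and 1084 with OVA alone and 127, 173 and 771 with the agonist, and 149.9 to 172 with saline (adjusted p = 0.0705, and 0.00176 without agonist 3). Irf4, a transcription factor of plasma cells and T helper 2 cells, read 196, 149.7 and 71 with OVA alone and −20.1, 6.1 and 20 with the agonist (adjusted p = 0.0658, and 0.0394 without agonist 3). Thy1, a T cell surface protein that fibroblasts carry too, read 143, 114 and 136 with OVA alone and 38, 44.8 and 90.6 with the agonist (adjusted p = 0.069, and 0.00579 without agonist 3). In these 3 genes every agonist array was below every OVA array and agonist 3 was the highest of the agonist arrays. Of the T and cytotoxic cell list, 7 genes had a log2 change above 0 and 12 below. Gzma, a granzyme of cytotoxic cells, read 119, 84.1 and 126 with OVA alone and 105, 161 and 154 with the agonist (adjusted p = 0.383). Cd4 had a log2 change of 0.32 ± 0.24 (adjusted p = 0.448). The summed intensity of the T cell list was 2067 to 2301 on the OVA arrays and 1892 to 2231 on the agonist arrays, ranges that overlap.

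Signalling lists outside the type 2 response held few calls, while 1.55% of all probe sets tested fell, and 3.76% without agonist 3. Of 38 interferon-response genes 1 fell, Psmb8, a subunit of the immunoproteasome (1.45-fold, adjusted p = 0.042, and 0.0175 without agonist 3), with a list median of −0.13 [−0.18 to −0.052], and 4 fell without agonist 3. Isg15, the interferon-induced ubiquitin-like modifier, read 97.1, 52.9 and 83.8 with OVA alone and 16, −8.6 and 22.7 with the agonist (adjusted p = 0.0633, and 0.0313 without agonist 3). Of 14 genes of NF-kB and Toll-like receptor signalling 0 passed (median −0.12 [−0.16 to −0.055]), and 2 fell without agonist 3. Nfkb2, a subunit of NF-kB that the pathway itself induces, read 100.3, 106 and 99.9 with OVA alone and 58.7, 43.6 and 82 with the agonist (adjusted p = 0.0891, and 0.0226 without agonist 3). Of 28 immediate early genes 0 passed (median 0.022 [−0.21 to 0.10]), and 1 rose and 1 fell without agonist 3. Psmb8 passed without agonist 3 and with no other single array left out (adjusted p of up to 0.138).

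Of 34 tested cell cycle genes 5 fell and 0 rose (median −0.30 [−0.44 to −0.13]), and 8 fell without agonist 3. The 5 were Pcna, the clamp of DNA replication, Mad2l1 of the spindle checkpoint, Cks1b and Cks2, which bind cyclin-dependent kinases, and Ezh2, the histone methyltransferase that dividing cells express. Cks1b read 139, 147 and 96.1 with OVA alone and 14.2, 23.5 and 39.3 with the agonist, at least 2.79-fold lower (adjusted p = 0.04997), and Cks2 read 102, 74.8 and 76.2 with OVA alone and 27.4, 20.6 and 38.4 with the agonist, at least 1.86-fold lower (adjusted p = 0.0363). Pcna read 648, 603 and 544 with OVA alone and 391, 438 and 407 with the agonist (log2 −0.54 ± 0.10, adjusted p = 0.0424). The groups did not overlap in these genes. Mki67, the proliferation antigen, is in this list too but was called on its dimmer probe set: it read 163, 153 and 107 with OVA alone and 28.3, 25.6 and 49.9 with the agonist, 2.98-fold with values held at that limit (adjusted p = 0.0355). Its brightest probe set had a log2 change of −0.26 (adjusted p = 0.319). Tubb5, a beta tubulin, read 862, 789.7 and 595 with OVA alone and 226, 319 and 223 with the agonist, and 237 to 403 with saline, a fall of 2.93-fold (log2 −1.55 ± 0.24, adjusted p = 0.0355), with agonist 3 as low as agonist 1. Its second, brighter probe set had a log2 change of −0.48 (adjusted p = 0.0555) and did not pass. The calls counted next are the 5 of the list, Mki67 and Tubb5. Single arrays mattered: without saline 1 or 2, OVA 1 or 2 or agonist 1 or 2, none of the 7 calls passed (a highest adjusted p of 0.125 to 0.168). Tubb5 alone passed without saline 3, Cks1b did not pass without OVA 3, and all 7 passed without agonist 3 (adjusted p 0.00773 to 0.0467).

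Of 43 extracellular matrix genes 3 fell, the macrophage elastase Mmp12 and the collagen VI chains Col6a1 and Col6a2 (median −0.24 [−0.21 to −0.0057], and −0.11 with values held at the detection limit). Without agonist 3 the list median was −0.0071, 7 genes fell and 1 rose, and no agonist array had a list median below −0.064 against the OVA mean. Col6a2 read 1243, 1198 and 1074 with OVA alone and 398, 470.4 and 566 with the agonist, and 439 to 476 with saline, a fall of 2.47-fold (log2 −1.30 ± 0.14, adjusted p = 0.00821). Col6a1 fell 1.42-fold (log2 −0.50 ± 0.08, adjusted p = 0.0368) and had a log2 change of −1.23 on a second probe set (adjusted p = 0.0355). The fibrillar collagens did not pass: Col3a1 had a log2 change of −1.07 ± 0.30 (adjusted p = 0.09, and 0.104 without agonist 3) and Col1a1 one of −0.79 ± 0.22 (adjusted p = 0.0925, and 0.0409 without agonist 3). Of 17 smooth muscle genes 1 fell, Myl9, the regulatory myosin light chain (1.43-fold, adjusted p = 0.0446). The list median was −0.052 [−0.14 to −0.023], with 6 genes above 0 and 11 below. Acta2, smooth muscle actin, read 1989.7, 2324 and 1795 with OVA alone and 1272, 1193 and 1524 with the agonist (adjusted p = 0.0545, and 0.0292 without agonist 3). Itga8, an integrin chain, went the other way: 57.7, 52.6 and 98 with OVA alone and 138, 135 and 103 with the agonist (adjusted p = 0.0856). So did Pdgfrb (log2 0.52 ± 0.28, adjusted p = 0.297).

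Of 31 chaperone and stress genes 2 fell, Hspa1a, the inducible HSP70, and its partner Dnajb1, and 1 rose. Hspa1a read 268, 277 and 348 with OVA alone and 99.9, 145 and 77.5 with the agonist, and 313 to 597 with saline, a fall of 2.84-fold (log2 −1.51 ± 0.29, adjusted p = 0.0454). Dnajb1 read 215, 219 and 234 with OVA alone and 146, 109.7 and 106 with the agonist, and 228 to 312 with saline, a fall of 1.86-fold (log2 −0.90 ± 0.17, adjusted p = 0.0432). In both genes the agonist arrays lay below the saline arrays as well as below the OVA arrays, and agonist 3 was the lowest of them. Of 36 genes of oxidative phosphorylation 1 fell, Cox5b of cytochrome c oxidase (1.33-fold, adjusted p = 0.0444), with a median of −0.18 [−0.20 to −0.16]. That count is near the share of all probe sets that fell, 1.55%. For Col6a1, Col6a2, Myl9, Hspa1a, Dnajb1 and Cox5b the calls rested on many arrays. The calls did not hold without OVA 1 (a highest adjusted p of 0.0573 to 0.148). Col6a2 alone passed without saline 1, 2 or 3, OVA 2 or agonist 1 or 2, Col6a2 and Cox5b alone passed without OVA 3, and Col6a1, Col6a2 and Cox5b alone passed without agonist 3.

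The rises were smaller than the falls and included genes of airway epithelial metabolism, vessels, adipose and heart muscle. Of 26 tested genes of xenobiotic metabolism, the oxidases and transferases in which club cells are rich, 4 rose and 0 fell (median 0.50 [0.44 to 0.60]), and 11 rose without agonist 3. Of 13 club and ciliated cell genes 3 rose and 0 fell (median 0.27 [0.10 to 0.33]), and all 3 are in the former list too. Without agonist 3, 1 club and ciliated cell gene fell. The summed intensity of the club and ciliated list was 27633 to 32291 with saline, 22471 to 25843 on the OVA arrays and 29263 to 31660.3 on the agonist arrays.

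Cyp2f2, the cytochrome P450 of club cells, read 1649, 1782 and 2071 with OVA alone and 3831, 3652 and 2948 with the agonist, and 3359 to 3881 with saline, a rise of 1.89-fold (log2 0.92 ± 0.14, adjusted p = 0.0355). Cyp2e1, an ethanol-oxidising cytochrome P450, read 115, 124 and 119 with OVA alone and 300.4, 484 and 334 with the agonist, and 289 to 458 with saline, a rise of 3.06-fold (log2 1.62 ± 0.23, adjusted p = 0.0355). All agonist arrays were above all OVA arrays in both, and agonist 3 was the lowest agonist array in Cyp2f2 but not in Cyp2e1. Cyp4b1, a fatty acid and xenobiotic oxidase, rose 1.59-fold (adjusted p = 0.0454), and Gsta3, a glutathione transferase, rose 1.7-fold (adjusted p = 0.0423). Cat, catalase, which breaks down hydrogen peroxide, read 356, 324 and 421 with OVA alone and 736, 708 and 569 with the agonist and rose 1.83-fold (log2 0.87 ± 0.13, adjusted p = 0.0355). A second Cat probe set had a log2 change of 0.07 and did not pass. When saline 1 or 2, OVA 1 or 2 or agonist 1 or 2 was left out, none of the 5 calls passed (a highest adjusted p of 0.125 to 0.16). Cyp2e1 alone passed without saline 3, Cyp4b1 and Gsta3 did not pass without OVA 3, and all 5 passed without agonist 3 (adjusted p 0.00875 to 0.0202).

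**Figure D3:**
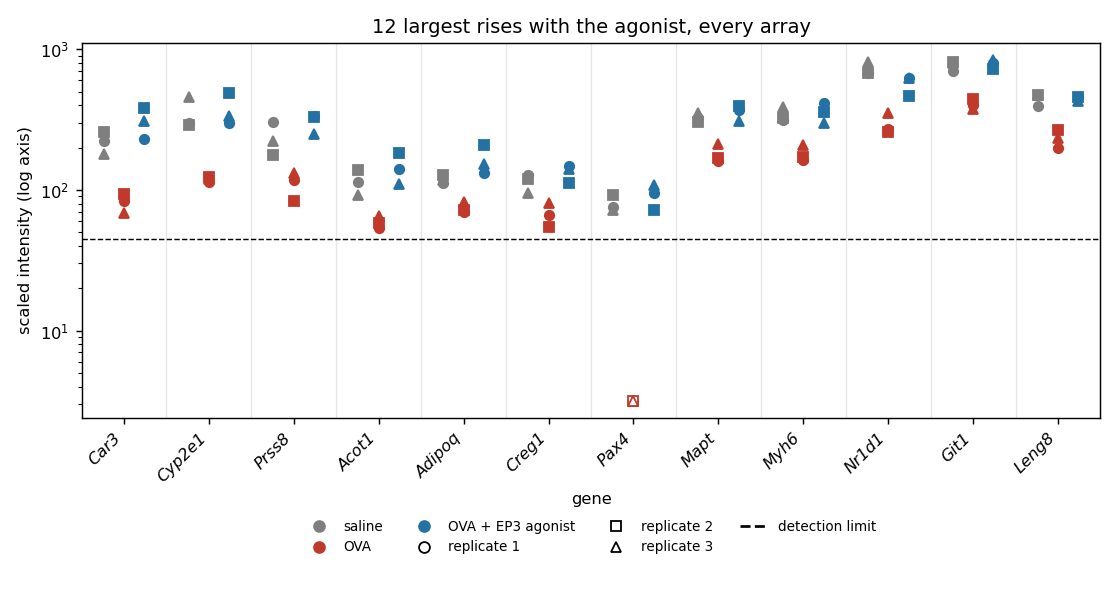
Scaled intensity (vertical, log axis) of the 12 genes with the largest rises among calls, 1 point per array for saline, OVA and OVA with the EP3 agonist, with the replicate number as the symbol. Open symbols at the bottom are values raised to the floor of 3.19, and the dashed line is the detection limit of 44.9. In every gene the 3 agonist points lie above the 3 OVA points, and only in Pax4 are the OVA points at the floor.

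Of 32 endothelial genes 4 rose and 0 fell (median 0.37 [0.27 to 0.41]). Eng, endoglin, a TGF-beta co-receptor, read 2643, 2761 and 3085 with OVA alone and 4323, 4435 and 4044 with the agonist, and 3933 to 4427 with saline, a rise of 1.51-fold (log2 0.59 ± 0.09, adjusted p = 0.0363). Cdh5, VE-cadherin of endothelial junctions, rose 1.36-fold (adjusted p = 0.0471), Tek, the angiopoietin receptor, 1.61-fold (adjusted p = 0.0471) and Calcrl, the receptor of adrenomedullin and calcitonin gene-related peptide, 1.31-fold (adjusted p = 0.04997). All agonist arrays were above all OVA arrays in these genes. On dimmer probe sets, Acvrl1 and Flt4, receptors of bone morphogenetic proteins and of lymphatic growth factors, were called higher (adjusted p = 0.041 and 0.0366) and Vcam1, the adhesion molecule that leukocytes bind on activated endothelium, lower. That Vcam1 probe set read 234, 220.4 and 208 with OVA alone and 102, 108 and 133 with the agonist (log2 −0.96 ± 0.12, adjusted p = 0.0209), and the brightest one had a log2 change of −0.63 (adjusted p = 0.0565). Acvrl1 and Flt4 passed only without OVA 3 or agonist 3 (a highest adjusted p of 0.137 and 0.125). Vcam1 did not pass without OVA 1 or 2 or agonist 1 or 2 (at most 0.0948). The summed intensity of the endothelial list was 31026 to 32151 with saline, 24165 to 26709 on the OVA arrays and 29294 to 31564 on the agonist arrays.

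Of 9 alveolar type 1 genes 1 rose, Cav1, caveolin-1, also abundant in endothelium (1.37-fold, adjusted p = 0.0444, list median 0.40 [0.32 to 0.48]). Hopx, a homeodomain protein of type 1 cells, read 3231, 3451 and 3934 with OVA alone and 5325, 4985 and 4692 with the agonist (adjusted p = 0.0565). Of 15 alveolar type 2 genes 2 fell, Fabp5 and Chil1, and the list median was 0.092 [0.042 to 0.13], with overlapping sums of 39959 to 45651 on the OVA arrays and 43556 to 46368 on the agonist arrays. Of 17 fibroblast and mesothelial genes 1 rose, Pdgfra, the platelet-derived growth factor receptor of lung fibroblasts, which read 809, 853 and 949 with OVA alone and 1529, 1292 and 1303 with the agonist, a rise of 1.58-fold (log2 0.66 ± 0.12, adjusted p = 0.042). A second Pdgfra probe set had a log2 change of 0.07 (adjusted p = 0.805). The calls counted next are Eng, Cdh5, Tek, Calcrl, Cav1 and Pdgfra. Of these 6 calls none passed without saline 1, 2 or 3, OVA 1 or 2 or agonist 1 or 2 (a highest adjusted p of 0.125 to 0.168). Calcrl and Cav1 did not pass without OVA 3, and Calcrl did not pass without agonist 3.

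Some genes of heart muscle and adipose tissue, which can adjoin a piece of lung, rose with the agonist. Of 18 heart muscle genes, which the pulmonary veins of mice also express, 2 rose (4 without agonist 3) and all 18 had a log2 change above 0, with a median of 0.62 [0.53 to 0.81]. Of 12 adipose genes 4 rose and all 12 were above 0, with a median of 0.47 [0.39 to 0.53]. In comparison 4603 of the 7916 probe sets tested were above 0. The summed intensity of the heart muscle list was 5409.7 to 6586 with saline, 4024 to 4848 on the OVA arrays and 5394 to 6316 on the agonist arrays. The adipose list summed to 6318 to 6700.1 with saline, 6119.8 to 6813 on the OVA arrays and 6940.0 to 7971 on the agonist arrays. Their part in other rises was not tested.

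Myh6, the alpha heavy chain of cardiac myosin, read 162, 170.0 and 209 with OVA alone and 413, 358 and 298 with the agonist, and 315 to 387 with saline, a rise of 1.97-fold (log2 0.98 ± 0.16, adjusted p = 0.0366). Atp2a2, the calcium pump of the sarcoplasmic reticulum, rose 1.53-fold (adjusted p = 0.0444). Car3, carbonic anhydrase 3 of adipose tissue and muscle, had the largest rise among the named genes that passed, with values held at the detection limit: it read 83.3, 92.8 and 68.2 with OVA alone and 229, 383 and 309 with the agonist, and 179 to 258 with saline. That was 3.72-fold (log2 1.89 ± 0.22, adjusted p = 0.0158), with every agonist array above every OVA array. Adipoq, adiponectin, read 69.7, 72.4 and 81.9 with OVA alone and 133, 208 and 152 with the agonist, a rise of 2.16-fold (log2 1.11 ± 0.17, adjusted p = 0.0355). Lpl rose 1.33-fold (adjusted p = 0.0444), and Pck1, the gluconeogenic carboxykinase of liver, kidney and fat, rose at least 1.24-fold from below the detection limit (adjusted p = 0.042). Acot1, a cytosolic acyl-CoA thioesterase, rose 2.4-fold (adjusted p = 0.0381). Leaving out OVA 1 ended all 7 calls (a highest adjusted p of 0.0825 to 0.148). Car3 alone passed without saline 1, 2 or 3, OVA 2 or agonist 1, Atp2a2, Lpl and Pck1 did not pass without OVA 3, Car3 and Adipoq alone passed without agonist 2, and all 7 passed without agonist 3 (adjusted p 0.0137 to 0.0394).

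Of 11 red cell and platelet genes 1 rose, Hba-a1, alpha globin, and 1 fell, Car2, carbonic anhydrase 2, an enzyme that epithelium also makes (median 0.38 [0.26 to 0.44]), and 4 rose without agonist 3. Hba-a1 read 5459, 6132 and 5787 with OVA alone and 9409, 9189 and 7886 with the agonist, and 8637 to 10078 with saline, a rise of 1.52-fold (log2 0.61 ± 0.11, adjusted p = 0.041). Car2 read 985, 1052 and 931 with OVA alone and 466, 608 and 699 with the agonist, a fall of 1.7-fold (log2 −0.76 ± 0.15, adjusted p = 0.0446). Both were apart from OVA on every agonist array, and the list summed to 9861 to 10925 on the OVA arrays and 12763 to 15446 on the agonist arrays. These calls were lost without saline 1, 2 or 3, OVA 1, 2 or 3 or agonist 1 or 2 (a highest adjusted p of 0.137 to 0.147). Both passed without agonist 3 (adjusted p 0.0162 to 0.0194).

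Among the named rises, that of Pax4 held whichever array was left out. Pax4 is a paired-box transcription factor known from the endocrine pancreas. It read −33.3, −98.1 and −92.2 with OVA alone and 94.3, 71.8 and 108 with the agonist, and 71.5 to 91.5 with saline. All OVA arrays were below 0 and all agonist arrays above the detection limit, at least 2.01-fold higher (adjusted p = 7.80e-06, at most 0.0002 with any array left out, with the OVA group's spread left out as it lay at the floor). The level on the agonist arrays was low, at most 108 against a limit of 44.9. Prss8, prostasin, the protease that activates the epithelial sodium channel, read 118, 82.9 and 131 with OVA alone and 337, 332 and 249 with the agonist and rose 2.79-fold (log2 1.48 ± 0.25, adjusted p = 0.0381). Mapt, the microtubule-binding protein tau, rose 1.99-fold (adjusted p = 0.0355), and its 2 other probe sets had log2 changes of 0.91 (adjusted p = 0.042) and 0.41 (adjusted p = 0.202). Git1, a GTPase-activating protein that binds G protein-coupled receptor kinases, read 401, 445 and 379 with OVA alone and 794, 727 and 832 with the agonist and rose 1.92-fold (log2 0.94 ± 0.10, adjusted p = 0.00975). For Git1, agonist 1 and 2 lay within the saline range of 703 to 808 and agonist 3 above it. Leng8 rose 1.92-fold (adjusted p = 0.0342) and Creg1, a glycoprotein of the lysosome, 2.01-fold (adjusted p = 0.0424). Single arrays mattered: without OVA 1 or agonist 1, none of the 5 calls passed (a highest adjusted p of 0.0635 to 0.137). Git1 and Leng8 alone passed without saline 1 or OVA 2, Git1 alone passed without saline 2 or 3 or agonist 2, and all 5 passed without OVA 3 or agonist 3.

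Among the prostanoid receptors 0 of 4 tested passed. Both probe sets of Ptger3, the receptor the agonist targets, were below the detection limit on all 9 arrays, between −19.1 and 3.5, as was that of Ptger1, so the array gives no level for either. Ptger2, the receptor EP2, read 50.9, 62.2 and 60.5 with OVA alone and 51, 52.7 and 59.6 with the agonist (log2 −0.09 ± 0.13, adjusted p = 0.716), with overlapping groups. Ptger4, the receptor EP4, read 80.4, 75.3 and 33.1 with OVA alone and 1.5, 14.4 and 10.4 with the agonist. With 2 arrays above the limit, Ptger4 was not tested. Of 10 genes of prostaglandin synthesis and breakdown 1 rose, Hpgd, the dehydrogenase that inactivates prostaglandin E2. Most of the list went the other way, with 7 genes below 0 and 3 above. The list median was −0.39 [−0.42 to −0.19], and −0.11 with values held at the detection limit. Without agonist 3, 1 gene rose and 1 fell. Hpgd read 789.9, 805 and 1067 with OVA alone and 1907, 1555 and 1549 with the agonist, and 1295 to 1499 with saline, a rise of 1.89-fold (log2 0.92 ± 0.15, adjusted p = 0.0363), with the agonist arrays above the OVA arrays without overlap. Hpgd passed without agonist 3 (adjusted p = 0.0263) and without OVA 3, and with any other array left out its adjusted p was at most 0.125 and did not pass. Ptges, an inducible prostaglandin E synthase, read 160.2, 195 and 161 with OVA alone and 124, 61.5 and 139.6 with the agonist (adjusted p = 0.177).

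Of 33 genes of G protein and cAMP signalling 0 passed, with a median of 0.15 [0.12 to 0.18]. Adcy4, an adenylate cyclase of endothelium, read 263, 296 and 279 with OVA alone and 394, 437 and 385 with the agonist (log2 0.54 ± 0.11, adjusted p = 0.0543). Rgs2, a regulator that shortens G protein signals, read 229, 194 and 219 with OVA alone and 281, 375 and 379 with the agonist (log2 0.68 ± 0.16, adjusted p = 0.0635). Gnao1, an inhibitory-type G protein alpha subunit, read 169.6, 204 and 192 with OVA alone and 247, 289 and 268 with the agonist (log2 0.51 ± 0.11, adjusted p = 0.0543), and its second probe set had a log2 change of −0.29 (adjusted p = 0.832). On the first probe set of Gnao1 and in the other 2 genes the agonist arrays were above the OVA arrays without overlap, which was so for 17.8% of all probe sets tested, and none of them passed.

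Of 16 clock genes 1 rose, Nr1d1, the repressor REV-ERB alpha, and 1 fell, Bhlhe40, a repressor of the clock that T cells and macrophages also use (median 0.29 [0.20 to 0.33]). Nr1d1 read 272, 257 and 349.6 with OVA alone and 624, 468 and 625 with the agonist, and 673 to 808 with saline, a rise of 1.95-fold (log2 0.97 ± 0.17, adjusted p = 0.0397). Bhlhe40 read 544, 649 and 582 with OVA alone and 259, 398 and 371 with the agonist, and 404 to 431 with saline, a fall of 1.75-fold (log2 −0.81 ± 0.16, adjusted p = 0.0488). The groups did not overlap in either gene, and agonist 3 was not the agonist array nearest to OVA. The calls did not hold without saline 1, 2 or 3, OVA 1 or 2 or agonist 1 or 2 (an adjusted p of up to 0.137). Nr1d1 alone passed without OVA 3, and both passed without agonist 3 (adjusted p 0.0425 to 0.0428). The hour of tissue collection is in no source used here, and its part was not tested.

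Some neutrophil genes were high on agonist 1 and 3, while others were lower than with OVA alone. Of 17 tested 1 fell, Chil1, and 0 rose, and 2 fell without agonist 3. The log2 change was above 0 in 11 and below 0 in 6. The list median was 0.22 [0.14 to 0.48], with per-array medians of 0.35, −0.07 and 0.48. The list summed to 6239 to 8177 on the OVA arrays and 3547 to 8767 on the agonist arrays. Lcn2, lipocalin 2, read 2608, 2946 and 2000 with OVA alone and 986, 569 and 1875 with the agonist (adjusted p = 0.101, and 0.0172 without agonist 3). Chil1 and Lcn2 made up much of the sums on the OVA arrays. S100a8 and S100a9 encode calprotectin, the main cytosolic protein of neutrophils. S100a8 read 421, 323 and 281 with OVA alone and 2281, 287 and 2026 with the agonist, and 259 to 403 with saline (log2 1.71 ± 0.72, adjusted p = 0.201). S100a9 read 152, 98.3 and 101 with OVA alone and 1542, 128 and 1181 with the agonist, and 98 to 126 with saline (log2 2.43 ± 0.84, adjusted p = 0.136). Agonist 1 and 3 were high in both genes and agonist 2 was at the OVA level, so the difference did not exceed the spread within the agonist group. Both passed without agonist 2 (limma adjusted p = 0.0075 for S100a8 and 0.00155 for S100a9) and with no other array left out. Without agonist 3 the adjusted p was 0.359 and 0.238. One probe set of Csf3r, the granulocyte colony-stimulating factor receptor, read 335, 59.2 and 289.5 on the agonist arrays and 102, 90.3 and 43.6 with OVA alone, the same order. The brightest Csf3r probe set read 418, 313 and 371 on the agonist arrays and 231, 372 and 253 with OVA alone, and the groups overlapped. Of the granule genes, made in the marrow, Mpo and Ngp were below the detection limit on the 6 challenged arrays. Elane (74.8 to 92.5), Camp (182 to 388) and Ltf (167 to 305) were above it on all 6, and none of these 3 passed. Mmp9, the gelatinase that neutrophils store, read 47.2, 76 and 100.3 with OVA alone and 246, 134 and 210.3 with the agonist (log2 1.42 ± 0.35, adjusted p = 0.069), above OVA on every agonist array.

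**Figure D4:**
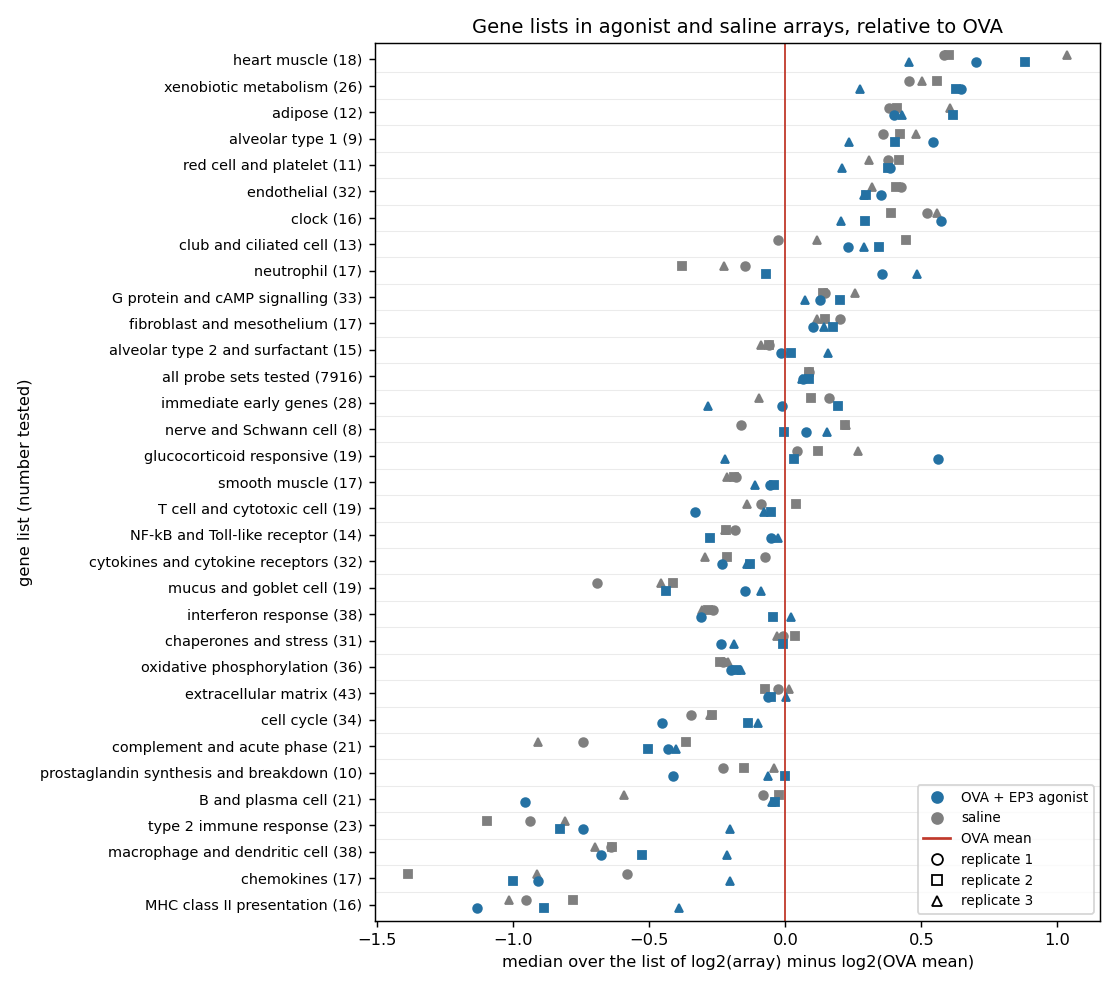
Median over each gene list (vertical axis, number tested in brackets) of log2 of an array minus log2 of the OVA mean (horizontal axis), 1 point per agonist and saline array with the replicate number as the symbol and a line at the OVA mean. Lists with at least 8 tested members are ordered by the median log2 change of the agonist comparison. In the MHC class II, chemokine, macrophage and type 2 lists agonist 3 lies nearest to the OVA mean, in the B and plasma cell and prostaglandin synthesis lists agonist 2 does, and heart muscle, xenobiotic metabolism and adipose lie to the right on every agonist array.

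Agonist 3 was the agonist array nearest to OVA in the MHC class II, chemokine, macrophage and type 2 lists but not in the B and plasma cell or prostaglandin synthesis lists, where agonist 2 was. It lay at −0.21 for macrophages against −0.68 and −0.53 for agonist 1 and 2. Over single probe sets, agonist 3 was the agonist array nearest to OVA in 78 of the 123 lower calls and in 53 of the 102 higher calls. The lists with medians above 0.4 on the agonist arrays together were heart muscle, xenobiotic metabolism, adipose and alveolar type 1. Their per-array medians were 0.70, 0.88 and 0.46 for heart muscle, 0.64, 0.63 and 0.27 for xenobiotic metabolism, 0.40, 0.61 and 0.43 for adipose and 0.54, 0.40 and 0.23 for alveolar type 1.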

How the data were processed

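Each probe set has 1 intensity per array, linear and as the authors deposited it. How it was summarized and subtracted is not given in the sources used here. Of 12488 probe sets, 66 AFFX controls were left out after scaling each array to the mean of the 9 arrays' 2% trimmed means. Scaled values below 3.19 (the 20th percentile) were raised to it before log2. Testing required 3 or more of the 9 arrays above 44.9 (the 40th percentile, the detection limit), which left 7916 for 5949 genes. Genes were named from the array's probe table (10833 probe sets with 1 symbol, 396 with several, 1193 with none), and 10817 symbols matched a RefSeq table by gene ID (GRCm38.p6, names only).

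Group means of the 9 arrays were fitted in R 4.3.3 by limma 3.58.1 (lmFit, then eBayes), with 6 residual and 1.7 prior degrees of freedom. P-values are two-sided and adjusted by Benjamini-Hochberg over all 7916. The number of arrays limits the precision. "At least" marks a fold whose dimmer group lay wholly below the limit, computed as the brighter group's geometric mean over the limit, while "held at the limit" raises each lower value to 44.9. Named genes are the 12 largest rises and falls among calls whose groups did not overlap (the probe set of smallest p per gene, antigen receptor segments left out), then at most 4 genes from each of 37 gene lists, passing ones first, and Ptger1 to Ptger4. Genes outside this rule (Il4ra, Aldh2, Cyba, Lyz2, H2-Eb1, Pcna, Acvrl1, Flt4, Vcam1, Csf3r, Mpo, Ngp, Elane, Camp, Ltf, Il5, Il9 and the lung and eosinophil markers) were named after their values were seen. Members and lists were chosen with earlier results of these data known. Lists are described by counts and medians over each gene's brightest probe set, without a list test.

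Replicate numbers were checked by correlating the arrays' deviations from their group means. Not every same-numbered pair deviated together, so the main fit has no block. Shared processing of same-numbered arrays was not tested. The alternatives tried were other normalizations, floors, filters, priors, array weights, array subsets, thresholds and the replicate block. 1 was added after seeing the data: leaving out probe sets with a group wholly at the floor. The procedure was also run on simulated data with independent noise, without a floor or an outlying array. These data differ from the arrays in those respects, so no conclusion is drawn from them.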

Additional observations from a re-analysis of the deposited data

How the results depend on the processing

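Of 225 calls, the alternatives gave 361 with a floor at the 40th percentile, 445 with a filter at the 60th percentile, 453 with an intensity trend and robust prior, 497 with array weights, 18 with only the 6 arrays compared, 830 at an adjusted p of 0.1 and 63 at 2-fold or more. Leaving out 1 array gave 13 (without OVA 1) to 512 (without agonist 3). With the replicate number as a block it was 14. Same-numbered challenged arrays did not deviate together over the probe sets tested, with correlations of −0.067, 0.003 and −0.05. Same-numbered saline and OVA arrays had 0.17, 0.11 and 0.035, and saline and agonist arrays −0.03, 0.078 and −0.14. The control AFFX-BioC-3_at was lowest on replicate 2 in each group. It read 806, 409 and 632 with saline, 649, 290 and 501 with OVA alone, and 917, 369 and 658 with the agonist. BioB controls had another order. Whether arrays were processed in sets by number was not tested. Quantile normalization (202), equal medians (210), a floor at 1 (194), no filter (196) and leaving out probe sets with a group wholly at the floor (212, chosen after seeing the data) stayed within 1.5 times. Of 143 named genes 61 passed, 4 of them (Ccl17, Fbp1, Alox15 and Pax4) in every alternative that tested them. Alox15 and Pax4 are not tested with the filter at the 60th percentile, and none of the 4 where groups wholly at the floor are left out. The other 57 had a highest adjusted p with 1 array left out between 0.0573 and 0.168. Sign changes occurred in 3 named genes that did not pass: Tpsb2 (−0.17 to 0.30 with 1 array left out), Mbp (−0.026 to 0.43) and Foxn1 (−0.58 to 2.03, and −0.21 with array weights). Of 37 list medians 6 changed sign in some alternative: alveolar type 2, glucocorticoid, immediate early, mast cell, nerve and prostanoid receptor genes. The causes were not tested. Probe sets below the detection limit, among them Ptger3, have no measured level.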

Other observations

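Genes known to respond to glucocorticoids stood apart on agonist 1. Of 19 tested 0 passed, with a median of −0.00092 and per-array medians of 0.56, 0.03 and −0.22. Zbtb16, a zinc finger transcription factor, read 167, 281 and 379.7 with OVA alone and 2321, 677 and 358 with the agonist, and 641 to 881 with saline (adjusted p = 0.166). Map3k6, a stress kinase, read 79.4, 65.1 and 64.7 with OVA alone and 347, 137 and 57.4 with the agonist (adjusted p = 0.31, and 0.0495 without agonist 3). Ddit4, an inhibitor of mTOR signalling, read 286, 194 and 209 with OVA alone and 346, 109.7 and 38.3 with the agonist (adjusted p = 0.413). Agonist 1 was the highest and agonist 3 the lowest agonist array in these 3 genes. On agonist 3, Zbtb16 lay within the OVA range and Map3k6 and Ddit4 below it. Without agonist 3, 2 genes of the list rose and 1 fell.

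Thymus genes gave no call (0 of 6), with a median of 0.38 [0.20 to 0.45] and a summed intensity of 2107 to 2384 on the OVA arrays and 2804 to 3237 on the agonist arrays. Rag1, the recombinase of developing lymphocytes, read 1655, 2009 and 1956 with OVA alone and 2573, 2707 and 2347 with the agonist, and 1968 to 2815 with saline (adjusted p = 0.128). This single probe set made up most of the summed intensity on every array, so the sum mainly follows it. Of 8 nerve and Schwann cell genes 0 passed. Pmp22, a protein of peripheral myelin and epithelium, read 1135, 1043 and 1229 with OVA alone and 1542, 1422 and 1529 with the agonist, and 1574 to 1755 with saline (adjusted p = 0.064).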
